A study of Mus musculus with 2 samples.

Results

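The cytotoxic granule genes examined here were Gzma, Gzmb, Gzmc, Gzmd, Gzme, Gzmf, Gzmk, Prf1 and Nkg7, 9 of the 32285 genes measured, and they were taken by symbol from the gene list of the deposited data. Their unique molecular identifiers (UMIs, each marking 1 captured RNA molecule) were followed through single-cell RNA sequencing of subcutaneous MC38 tumors in C57BL/6 mice. MC38 is a mouse colon carcinoma line and MSA-2 is a small-molecule agonist of STING, the adaptor that links cytosolic DNA sensing to type I interferon. One library came from tumors labelled untreated, although the control is described elsewhere as saline, with DMSO added according to the series record. The other came from tumors injected with MSA-2. In each library the tumors of 3 mice were pooled, the tumors received 3 intratumoral doses 3 days apart, and collection was on day 7. The comparison addresses which killing genes the NK and T cells of these tumors carried and whether their levels differed after MSA-2. Each condition is 1 library of pooled tumors, so the spread between tumors is unknown, no test between conditions was made, and every interval below covers counting error only.

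Granzymes are serine proteases that NK cells and cytotoxic T cells store in granules and release against target cells. Perforin, the product of Prf1, forms the pores through which granzymes reach the cytosol of the target, and Nkg7 encodes a granule membrane protein needed for efficient release. Granzyme B cleaves after aspartate, whereas granzymes A and K are tryptase-like. Granzymes C to F are rodent proteases related to granzyme B and are known from strongly activated lymphocytes. In GRCm38 coordinates with GENCODE annotation, all 9 are protein-coding genes. Gzme (ENSMUSG00000022156, chr14:56117626-56120625), Gzmd (ENSMUSG00000059256, chr14:56129556-56132608), Gzmf (ENSMUSG00000015441, chr14:56205263-56211417), Gzmc (ENSMUSG00000079186, chr14:56231441-56234656) and Gzmb (ENSMUSG00000015437, chr14:56258838-56262260) lie in 1 cluster on the minus strand of chromosome 14, with the granzyme genes Gzmg and Gzmn between Gzmd and Gzmf. Gzma (ENSMUSG00000023132, chr13:113093825-113100981) and Gzmk (ENSMUSG00000042385, chr13:113171608-113225908) are neighbors on the minus strand of chromosome 13, while Prf1 (ENSMUSG00000037202, chr10:61297833-61304680) and Nkg7 (ENSMUSG00000004612, chr7:43437073-43438249) are on the plus strand of chromosomes 10 and 7.

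The files held 14386 untreated and 14617 MSA-2 barcodes. After filtering and doublet removal, 13334 and 13393 cells with totals of 183355500 and 191888910 UMIs and median depths of 8298.5 and 9271 UMIs per cell were kept. The libraries shared 53 barcodes, and 7 NK/T-like cells carried one of them. The NK/T-like class, named from markers that include none of the 9 genes, held 1524 untreated cells (11.4%) and 301 MSA-2 cells (2.25%). Neutrophil-like cells numbered 41 and 2648. The cells were sorted through a gate that is not described, and its part in these shares was not tested. The sample labels call the cells tumor cells. The largest class, of 6568 and 7031 cells, had low Ptprc, which encodes CD45, and is called Ptprc-low here. The 10 epithelial markers checked there, such as Krt8, Epcam and Cldn4, were each at or below 0.662 CPM in both libraries. Its cells were deep, with medians of 20331.5 and 19975 UMIs, and whether they are the MC38 cells was not tested. Within the NK/T-like class, NK-like cells numbered 258 and 124, CD8 T-like cells 891 and 134, Treg-like cells 190 and 20, and CD4 T-like cells 185 and 23. The last type was led by Il17a, Il1r1 and Il23r, contained Trdc UMIs and had no Cd4 UMI in the MSA-2 library, so its name is weak. The 9 genes and the other granzymes were kept out of the genes used for clustering, so no type was defined by them.

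The unit of level is CPM (the per-million count), in which a gene's UMIs in a type are summed and divided by the type's total. Because the assay counts 3′ ends, CPM is not divided by gene length. In the untreated library, the members divided between NK-like and CD8 T-like cells. Gzmc was by far the most abundant member in NK-like cells, with 8324 CPM against 126 in CD8 T-like cells. Gzma measured 1246 CPM in NK-like and 190 in CD8 T-like cells, and Gzmb 1295 and 541. Prf1, the pore former, stood at 548 and 224 CPM. These genes were therefore highest in NK-like cells, and of the T cell types the CD8 T-like cells carried most of them.

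Of the remaining members, Gzmd and Gzme shared that order in the untreated library, and Gzmf, Nkg7 and Gzmk were higher in CD8 T-like cells. Gzmf measured 284 CPM in NK-like and 523 in CD8 T-like cells, Nkg7 1185 and 1519, and Gzmk 3.45 and 55.8. Gzmd was at 704 and 82.1 CPM and its neighbor Gzme at 174 and 89.1. Gzmk was nearly confined to CD8 T-like cells among the NK/T types, with 191 of its 203 UMIs there. Treg-like cells contained Gzmb at 353 CPM and Nkg7 at 296, and no other member above 18.1 CPM. CD4 T-like cells had Nkg7 at 251 CPM, Gzmb at 53.1 and no Prf1 UMI.

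**Figure D1:**
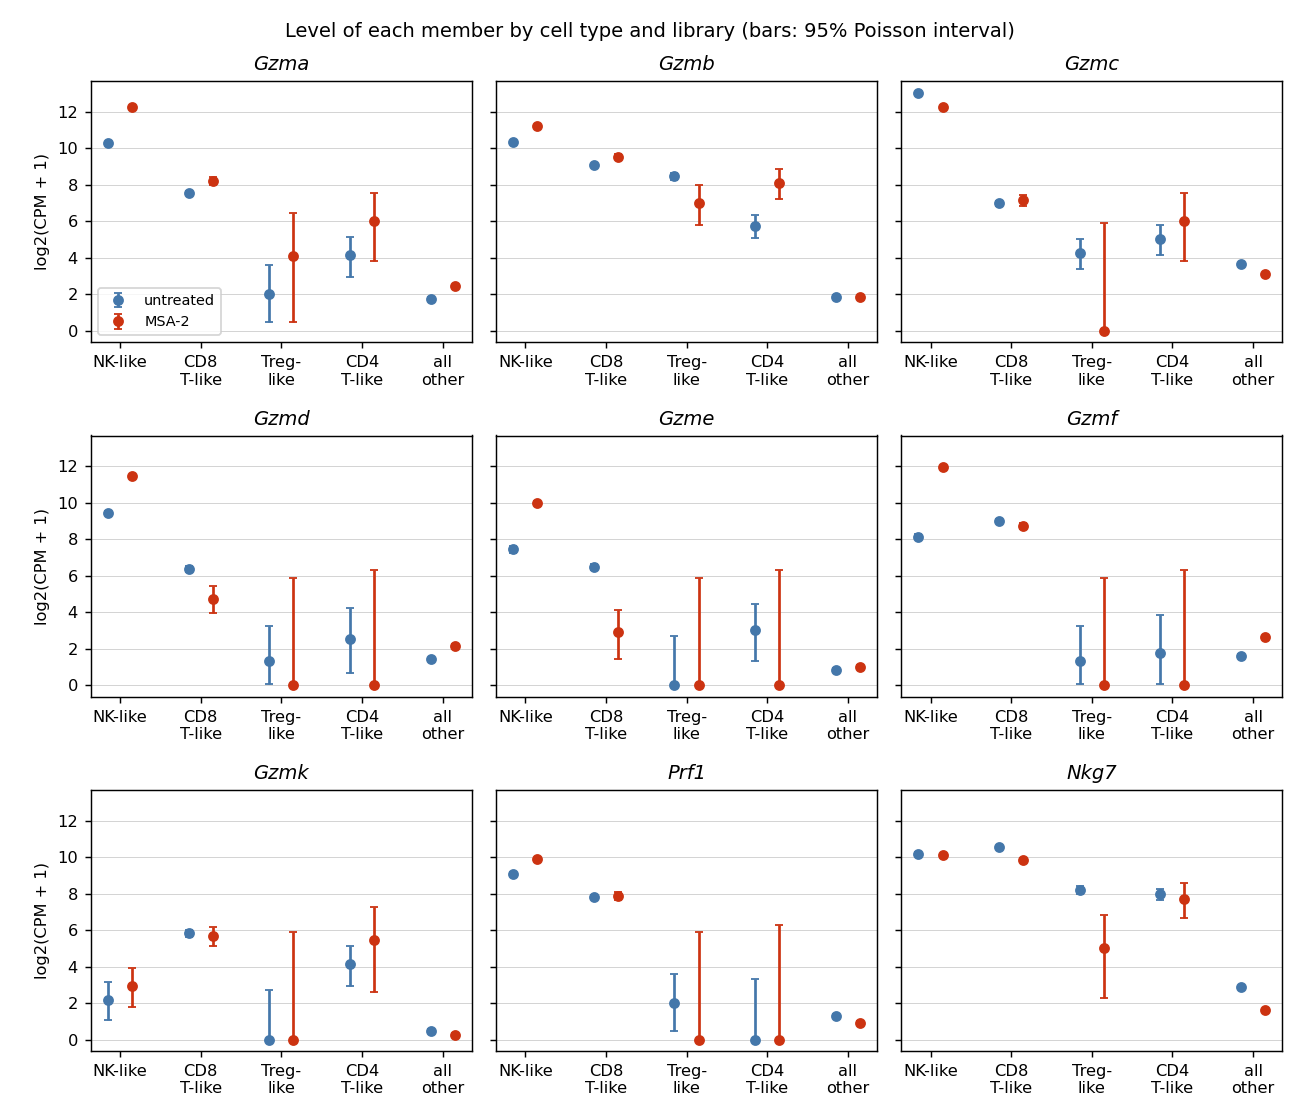
Level of each member as log2 of CPM plus 1 (vertical axis) in NK-like, CD8 T-like, Treg-like and CD4 T-like cells and in all other cells, by library, with 95% Poisson intervals. Gzmc is highest in untreated NK-like cells at 8324 CPM, Gzmf in MSA-2 NK-like cells reaches 4006 CPM from 284, and the cells outside the NK/T-like class are far below NK-like cells for the members other than Gzmk, which is low in both.

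Across the whole NK/T-like class, 6 of the 9 members were at least 2-fold higher in MSA-2 tumors and none was 2-fold lower. A gene was called when its ratio of MSA-2 over untreated CPM passed 2-fold with 1 CPM added to both levels and it had at least 20 UMIs in both libraries together. The log2 ratios and their 95% intervals are given without the added CPM, except where cells were left out or types reweighted. Of all 11181 genes with that many UMIs, 4.54% were called higher and 6.63% lower. Gzma rose from 415 to 2897 CPM (log2 ratio 2.80, 2.73 to 2.88), Gzmd from 219 to 1559 (2.83), Gzme from 94.1 to 569 (2.59) and Gzmf from 370 to 2375 (2.68). Gzmb rose from 670 to 1640 CPM (1.29) and Prf1 from 263 to 612 (1.22). Gzmc was at 2104 and 2828 CPM, Gzmk at 34.1 and 23.7 and Nkg7 at 1213 and 972, all within 2-fold. The median log2 ratio of the 9 members was 1.29, against -0.13 over all genes tested. The members were chosen with earlier results of these data known. Their counts and medians, here and within the types below, are therefore not read against those of all genes.

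The make-up of the class differed between the libraries. Of the untreated NK/T-like cells 16.9% were NK-like, as were 41.2% after MSA-2, and they supplied 24.4% and 55.2% of the UMIs. The MSA-2 levels of each type were then weighted by the untreated mix of types. Gzma (log2 ratio 1.76), Gzmd (1.67), Gzme (1.42) and Gzmf (1.72) remained at least 2-fold higher. No share of all genes is given for this weighting, so the number of members is not read as a result. Gzmb then had a log2 ratio of 0.65 and Prf1 of 0.47, while that of Gzmc was -0.69. The members were therefore compared within each type.

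In NK-like cells, 4 of the 8 members with enough UMIs were called higher and none lower, against 5.4% and 6.81% of the 8293 genes tested. The strongest was Gzmf, with 411 UMIs in untreated and 3634 in MSA-2 cells. Its level went from 284 to 4006 CPM, 14.1-fold (log2 ratio 3.82, 3.67 to 3.97). Gzme rose from 174 to 1025 CPM (2.56, 2.36 to 2.77), Gzma from 1246 to 5036 (2.01, 1.94 to 2.09) and Gzmd from 704 to 2806 (1.99, 1.89 to 2.10). Gzma became the most abundant member together with Gzmc, whose level was lower in MSA-2 cells at 5020 against 8324 CPM (-0.73, -0.78 to -0.68), short of 2-fold. Gzmb was at 1295 and 2435 CPM (0.91) and Prf1 at 548 and 946 (0.79). Nkg7 hardly differed, at 1185 and 1115 CPM (-0.09, -0.20 to 0.02). Gzmk had 5 and 6 UMIs, too few for a ratio. The median of the 8 members was 1.45, against -0.11 over all genes tested.

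Markers of other cells also differed between the NK-like cells of the 2 libraries. A list of 10 neutrophil markers summed to 16.6 CPM in untreated NK-like cells and reached 1655 CPM after MSA-2, with S100a9 at 5.65 UMIs per cell in the latter. A list of 9 mast cell and basophil markers went from 44.2 to 589 CPM. Of the MSA-2 NK-like cells, 9 held at least 20 UMIs of these lists, and no untreated NK-like cell did. Without such cells the count of members called in NK-like cells was again 4, with no share of all genes given for that set of cells. A single MSA-2 cell contained 569 mast cell protease UMIs, 98.4% of those in the type, together with 440 granzyme and perforin UMIs, of which 170 were Gzmf and 114 Gzmd. The defining neutrophil markers at 0 went from 6 to 1 of 10, and the mast cell markers at 0 from 5 to 0 of 9. The part of these markers in the member levels was otherwise not tested.

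The chromosome 14 members that differed in response have closely related promoters. The 250 bases before the RefSeq start sites (GRCm38.p6) are shown for the neighbors Gzmc, Gzmd, Gzme and Gzmf, since these genes are alike in sequence and were not alike in their ratios, and for Gzma, the other strongly higher member. Promoters were matched for all 9 members. Capitals mark matches on either strand to the RUNX motif TGTGGT and, in Gzma, also to the interferon-stimulated response element (ISRE), which is GAAA, any 2 bases and GAAA. The windows are chr14:56234658-56234907 for Gzmc, chr14:56132594-56132843 for Gzmd, chr14:56120626-56120875 for Gzme, chr14:56211408-56211657 for Gzmf and chr13:113100982-113101231 for Gzma, all on the minus strand and written 5′ to 3′.
Gzmc: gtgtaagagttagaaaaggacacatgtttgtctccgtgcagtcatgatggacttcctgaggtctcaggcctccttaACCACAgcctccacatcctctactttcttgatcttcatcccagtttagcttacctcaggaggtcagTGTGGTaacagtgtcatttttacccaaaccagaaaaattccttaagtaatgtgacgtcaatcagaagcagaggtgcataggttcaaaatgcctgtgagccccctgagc
Gzmd: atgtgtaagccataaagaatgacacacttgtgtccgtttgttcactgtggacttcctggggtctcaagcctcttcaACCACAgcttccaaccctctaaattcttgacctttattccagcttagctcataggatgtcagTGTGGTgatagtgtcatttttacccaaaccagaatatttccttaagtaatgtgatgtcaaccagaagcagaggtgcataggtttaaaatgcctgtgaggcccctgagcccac
Gzme: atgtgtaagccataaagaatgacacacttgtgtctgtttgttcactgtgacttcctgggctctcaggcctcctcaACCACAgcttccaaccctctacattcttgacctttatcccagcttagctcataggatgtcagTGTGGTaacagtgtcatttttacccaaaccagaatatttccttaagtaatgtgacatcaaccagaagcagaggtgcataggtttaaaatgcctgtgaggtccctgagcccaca
Gzmf: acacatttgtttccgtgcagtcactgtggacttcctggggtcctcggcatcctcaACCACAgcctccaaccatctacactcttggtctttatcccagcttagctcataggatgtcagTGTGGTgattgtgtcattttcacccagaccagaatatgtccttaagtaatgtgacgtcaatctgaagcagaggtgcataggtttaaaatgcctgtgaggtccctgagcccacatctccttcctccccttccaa
Gzma: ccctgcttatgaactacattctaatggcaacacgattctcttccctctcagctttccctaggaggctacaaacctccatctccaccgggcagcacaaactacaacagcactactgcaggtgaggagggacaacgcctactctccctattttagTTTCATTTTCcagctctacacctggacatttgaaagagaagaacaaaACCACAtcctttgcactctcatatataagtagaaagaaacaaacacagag

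Aligned end to end, the Gzmd and Gzme windows were identical at 94.8% of positions, Gzmc and Gzme at 81.8%, Gzmc and Gzmd at 81.3%, and Gzmf matched Gzmc, Gzmd and Gzme at 71.5%, 75.0% and 75.7%. Gzmb, the first gene of the cluster, shared 44.6% to 50.6% with the other members. The RUNX motif occurred in 8 of the 9 member promoters, all but Gzmk, against 14% of 32851 promoters of the same length. In Gzmb, Gzmc, Gzmd, Gzme and Gzmf it occurred at 2 positions. The ISRE occurred in Gzma only, 97 to 88 bases before the start, against 2.98% of promoters. The T-box motif TCACAC was in Gzmb, Gzmk and Nkg7 (12.3% of promoters), the AP-1 motif TGANTCA in Gzmb (6.75%) and the GAS motif TTCNNNGAA in Nkg7 (7.02%). No match overlapped that of another motif. Such matches describe letters in a window and are not evidence of binding. In the last 500 bases of the transcripts, where the assay reads, 7 of 411 windows of 90 bases (1.70%) were shared between Gzmd and Gzme. A read lying in such a window does not tell the pair apart, and the effect on their UMIs was not computed. No other member shared such a window.

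In CD8 T-like cells none of the 9 members was called higher and 2 were called lower, against 5.74% and 9.02% of the 9764 genes tested. Gzme fell from 305 to 4 UMIs, or 89.1 to 6.40 CPM (log2 ratio -3.80, -5.68 to -2.43). Gzmd fell from 281 to 16 UMIs, or 82.1 to 25.6 CPM (-1.68, -2.51 to -0.96). Both rested on few cells, since 49 of 891 untreated CD8 T-like cells held a Gzmd UMI and 44 a Gzme UMI, against 3 of 134 MSA-2 cells for each. At a coarser clustering resolution both ratios were positive, with 25 of the 121 MSA-2 CD8 T-like cells of that clustering (20.7%) being NK-like at the resolution used here.

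The other members stayed within 2-fold in CD8 T-like cells. Gzmf was at 523 and 426 CPM (log2 ratio -0.30), Gzmb at 541 and 743 (0.46) and Prf1 at 224 and 235 (0.07). Gzmc, at 126 and 141 CPM, and Gzmk, at 55.8 and 49.6, had intervals that included no difference. Gzma was at 190 and 298 CPM (0.64, 0.40 to 0.88), but 1 MSA-2 cell held 71 of the 186 Gzma UMIs. Without the 3 cells of each library richest in Gzma the log2 ratio was -0.97. That step took 3 of the 20 MSA-2 and 3 of the 95 untreated cells with Gzma, so the direction it gave is not read. CD8 cells were also taken as NK/T-like cells with Cd3 and Cd8 UMIs and no Cd4 UMI (729 and 92 cells). There Gzma was at 223 and 159 CPM (-0.49, -0.84 to -0.16), so its direction depended on how the cells were defined. Nkg7 was at 1519 and 917 CPM (-0.73, -0.85 to -0.60). The median of the 9 members was -0.17, against -0.11 over all genes tested. The neutrophil list went from 37.7 to 418 CPM in these cells, and no CD8 T-like cell held 20 UMIs of the neutrophil and mast cell lists.

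**Figure D2:**
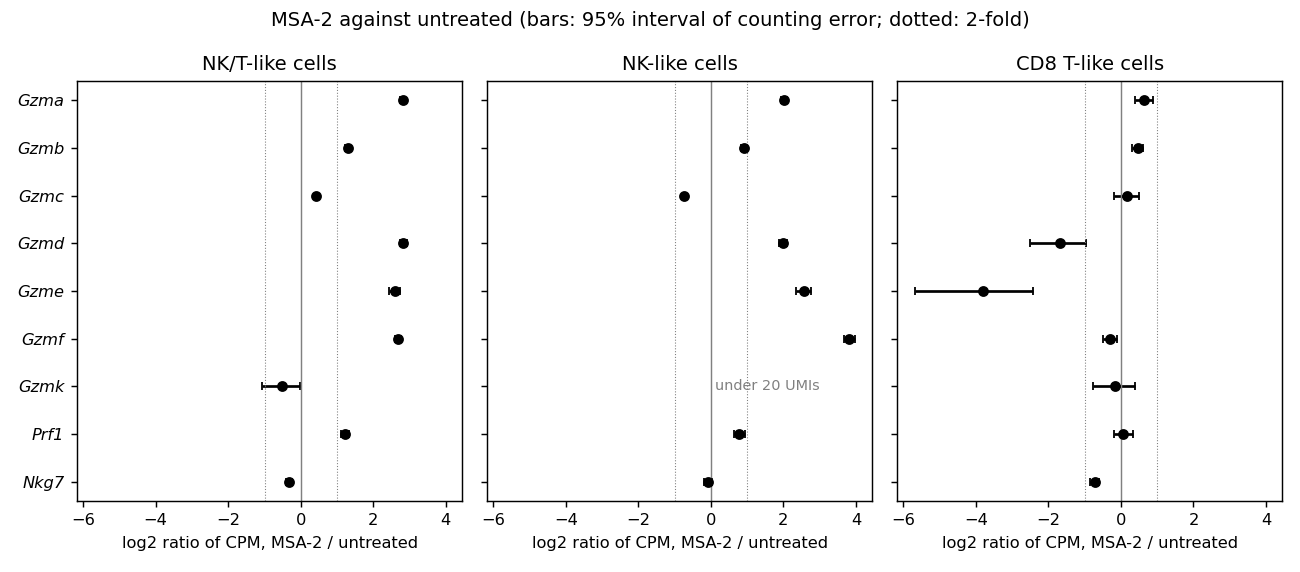
Log2 ratio of CPM, MSA-2 over untreated (horizontal axis), of each member in NK/T-like, NK-like and CD8 T-like cells, with 95% intervals for counting error and dotted lines at 2-fold. In NK-like cells Gzmf lies at 3.82, Gzme at 2.56, Gzma at 2.01 and Gzmd at 1.99, and in CD8 T-like cells Gzme lies at -3.80 and Gzmd at -1.68.

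Treg-like and CD4 T-like cells were too few after MSA-2 for firm values. Gzmb in Treg-like cells had 234 UMIs in untreated and 8 in MSA-2 cells, or 353 and 127 CPM (log2 ratio -1.48, -2.71 to -0.48). Nkg7 there had 196 and 2 UMIs. In CD4 T-like cells, Gzmb had 22 and 13 UMIs, or 53.1 and 275 CPM (2.38, 1.26 to 3.43), and Prf1 had none in either library.

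The NK/T-like cells were clustered again into 9 subclusters, which separated granzyme programs among the CD8 T-like cells. A subcluster led by Gm156, Csf1, Pdcd1, Cxcr6 and Havcr2 (419 untreated and 52 MSA-2 cells) carried Gzmf at 870 CPM and Prf1 at 298 in the untreated library, with Gzma at 9.68. Pdcd1 and Havcr2 encode the inhibitory receptors PD-1 and TIM-3. A subcluster led by Ly6c2, Klf3 and Ccl5 besides Gzmk (235 and 23 cells) showed the converse, with Gzma at 892, Gzmb at 1119 and Gzmk at 220 CPM, Gzmf at 10.1 and no Gzmd or Gzme UMI. After MSA-2 these values were 539, 1369 and 247 CPM for Gzma, Gzmb and Gzmk, on 23 cells. A subcluster led by Lef1 and Tcf7 (79 and 15 cells), genes of naive and stem-like T cells, held no Gzme or Gzmf UMI, and its untreated levels were 224 CPM for Gzmb, 56.0 for Gzma and 29.8 for Prf1. The small subcluster led by Ccl1, Penk and Ccr7 (43 and 3 cells) had Gzmc at 651 CPM in the untreated library, but 4 cells held all 138 UMIs and 1 of them held 66.

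The cycling subcluster made up 115 of 891 untreated and 41 of 134 MSA-2 CD8 T-like cells, with 797420 of 3422603 and 335395 of 624889 of their UMIs. The lower Gzme level of CD8 T-like cells was seen in both large subclusters that carried the gene, and that of Gzmd mainly in the cycling one. In the cycling subcluster (115 and 41 cells), Gzme went from 135 to 0 UMIs, which allows up to 8.94 CPM against 169 CPM, and Gzmd from 70 to 3. In the Pdcd1 subcluster, Gzme went from 163 to 4 UMIs and Gzmd from 187 to 13, or from 121 to 69.5 CPM, within 2-fold. Without the cycling subcluster, the log2 ratio in CD8 T-like cells was -2.15 for Gzme, past 2-fold, and -0.83 for Gzmd. No share of all genes called is given for these remaining cells. Gzma in the cycling subcluster was at 112 and 435 CPM, and without that subcluster the log2 ratios in CD8 T-like cells were -0.63 for Gzma and -0.40 for Prf1.

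Gzma, Gzmd, Gzme and Gzmf were at least 2-fold higher and Gzmc was lower in both NK-like subclusters. The larger, led by Gzmg, Tyrobp, Klra8, Cma1, Mcpt4 and S100a9 among others, held 233 and 97 cells. Its Gzmf level went from 329 to 5126 CPM (log2 ratio 3.96), Gzma from 1288 to 4498 (1.80) and Gzmc from 7777 to 4576 (-0.77). The cycling NK-like subcluster held 25 and 27 cells, and so was a larger part of NK-like cells after MSA-2. There Gzmf went from 47.6 to 1764 CPM, Gzme from 47.6 to 1314, Gzma from 1026 to 6112 (2.57) and Gzmb from 1173 to 3091 (1.40). Its Gzmc level, at 11209 and 5910 CPM, was the highest of any subcluster in the untreated library. Gzmb and Prf1 (1.30) passed 2-fold in the cycling subcluster and not in the larger one, where they had log2 ratios of 0.68 and 0.85, and this difference was not tested.

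**Figure D3:**
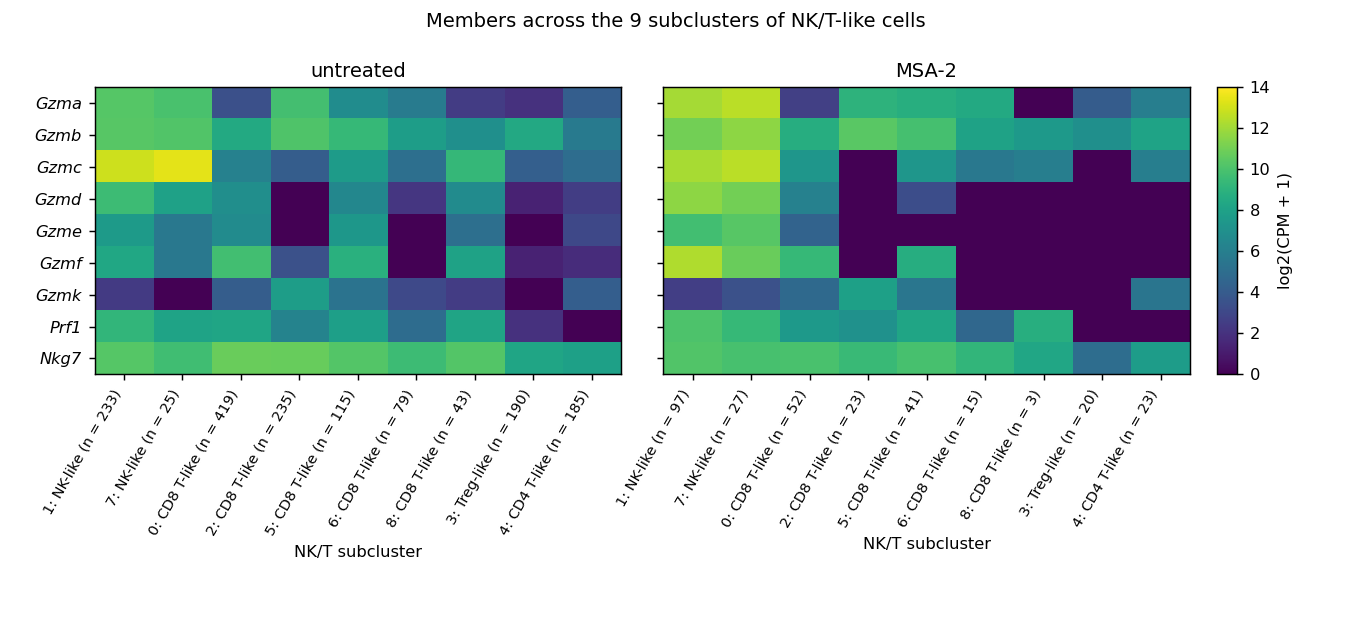
Level of each member, as log2 of CPM plus 1 by color, in the 9 subclusters of NK/T-like cells of each library, with cell numbers in the labels. Gzma, Gzmb and Gzmk share subcluster 2 (led by Gzmk and Ly6c2), Gzmf and Prf1 share subcluster 0 (led by Csf1 and Pdcd1), and Gzmd, Gzme and Gzmf are bright in NK-like subclusters 1 and 7 after MSA-2.

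To separate levels per cell from numbers of cells, each cell was thinned at random to 1500 UMIs, which kept 252 of 258 untreated and 121 of 124 MSA-2 NK-like cells. The share of these cells with a Gzma UMI was 34.9% in untreated and 71.1% in MSA-2 tumors. The shares were 57.5% and 80.2% for Gzmb, 44.4% and 65.3% for Prf1, and 75.4% and 76.0% for Nkg7. A larger share of NK-like cells thus held Gzma, Gzmb and Prf1, although the numbers of such cells were lower, at 88 and 86 for Gzma, 145 and 97 for Gzmb, and 112 and 79 for Prf1. Gzmc was in 70.2% and 47.9% of cells, lower after MSA-2. Gzmd was in 9.52% and 32.2%, Gzme in 5.95% and 24.0%, and Gzmf in 5.16% and 27.3%. In macrophage/monocyte-like cells thinned in the same way, which should lack these genes, the shares were 0.291% and 0.499% for Gzma, 0.476% and 0.388% for Gzmb, and 1.98% and 0.666% for Gzmc. Before thinning, the median depth of NK-like cells was 5083.5 and 6092 UMIs and that of macrophage/monocyte-like cells 5506 and 4329, and all NK-like shares were higher. They were 45.7% and 79.8% for Gzma, 76.4% and 93.5% for Gzmb, 73.6% and 58.9% for Gzmc, 12.4% and 37.1% for Gzmd, 10.9% and 32.3% for Gzme, and 6.59% and 32.3% for Gzmf.

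Gzmd, Gzme and Gzmf were intense in few NK-like cells. In the untreated library 17 of 258 cells held all 411 Gzmf UMIs, at most 69 in a cell, and in the MSA-2 library 40 of 124 cells held 3634, at most 542. The richest 10% of the MSA-2 cells contained 81.2% of Gzmf, 73.9% of Gzmd and 71.2% of Gzme UMIs, against 36.3% of Gzma and 24.5% of Nkg7 UMIs. In the untreated library the richest 10% held 64.5% of Gzma UMIs. Leaving out the 3 richest cells of each library for each member gave log2 ratios of 4.13 for Gzmf, 2.86 for Gzme and 2.65 for Gzmd in NK-like cells. Fewer untreated than MSA-2 cells held each of these genes, such as 17 and 40 for Gzmf. The step thus took a larger part of the untreated cells with the gene, and the size of these ratios is not read.

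In CD8 T-like cells the shares of Gzma, Gzmb, Gzmf, Gzmk and Prf1 were close between the libraries. After thinning, which kept 857 of 891 and 119 of 134 cells, Gzma was in 8.28% and 8.40%, Gzmb in 33.7% and 37.8%, and Prf1 in 20.9% and 21.8% of cells. Gzmk was in 9.10% and 8.40% and Gzmf in 10.9% and 8.40%. Gzme was in 28 untreated cells and 1 MSA-2 cell (3.27% and 0.84%), Gzmd in 3.73% and 1.68%, and Gzmc in 6.07% and 9.24%, with overlapping counting intervals for each of these genes. The share for Nkg7 was 84.2% in untreated and 70.6% in MSA-2 tumors. Depth before thinning was close, with medians of 3456 and 3663 UMIs, and the unthinned shares were 45.5% and 56.0% for Gzmb, 13.1% and 14.2% for Gzmf, and 93.8% and 76.1% for Nkg7.

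The number of the 8 granzyme and perforin genes found together in a cell differed between the types. Of the thinned NK-like cells, 46 of 252 in untreated (18.3%, Clopper-Pearson 95% interval 13.7% to 23.6%) and 57 of 121 in MSA-2 tumors (47.1%, 38.0% to 56.4%) held 4 or more. Without thinning the shares were 31.4% and 59.7%. Of the CD8 T-like cells, 26 of 857 (3.03%, 1.99% to 4.41%) in untreated and 0 of 119 in MSA-2 tumors (upper limit 3.05%) did. These intervals overlap, and the unthinned shares were 6.62% and 8.96%. None of the 8 genes was found in 8.33% and 4.96% of NK-like cells, 43.5% and 37.0% of CD8 T-like cells, 65.3% and 87.5% of Treg-like cells, and 87.1% and 86.7% of CD4 T-like cells. NK-like cells were thus the type with the broadest granzyme content, in both libraries.

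Within NK-like cells, Gzma went with Gzmb, and Gzmc went with Gzmd and Gzme. Gzma and Gzmb were found together in 25.0% of untreated and 62.8% of MSA-2 cells, against 20.1% and 57.0% from the product of the single shares. Gzmb and Prf1 were together in 31.3% and 53.7%, against 25.6% and 52.3%. Gzma and Gzmc met less often than the product of their shares, in 21.4% and 28.9% of cells against 24.5% and 34.1%. Gzmc was found in 61.4% of untreated cells with Gzma and 75.0% of those without, and in 40.7% and 65.7% after MSA-2. The Pearson correlation of Gzma with Gzmc across cells, on log1p of counts per 10000 UMIs, was -0.36 over 258 untreated and -0.28 over 124 MSA-2 cells. These cells share a library, and cells are not replicates.

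Gzmd, Gzme and Gzmf appeared almost entirely in cells with Gzmc. Every untreated NK-like cell with Gzmd (24 cells), Gzme (15) or Gzmf (13) after thinning also held Gzmc. In MSA-2 tumors 34 of 39, 27 of 29 and 27 of 33 such cells did. Among all thinned NK-like cells, 70.2% of untreated and 47.9% of MSA-2 cells held Gzmc, so much of the untreated overlap follows from that share. Gzmd and Gzme were together in 4.76% and 20.7% of cells, against 0.567% and 7.72% from the product of the shares. Their correlation was 0.78 in untreated and 0.92 in MSA-2 cells, with a small part of the sequence shared as given above. Gzmc and Gzmd correlated at 0.38 and 0.73, Gzmc and Gzmf at 0.16 and 0.49, and Gzmd and Gzmf at 0.18 and 0.62. Gzmb correlated with Gzmc at 0.16 and 0.30 and with Gzmd at 0.18 and 0.26.

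**Figure D4:**
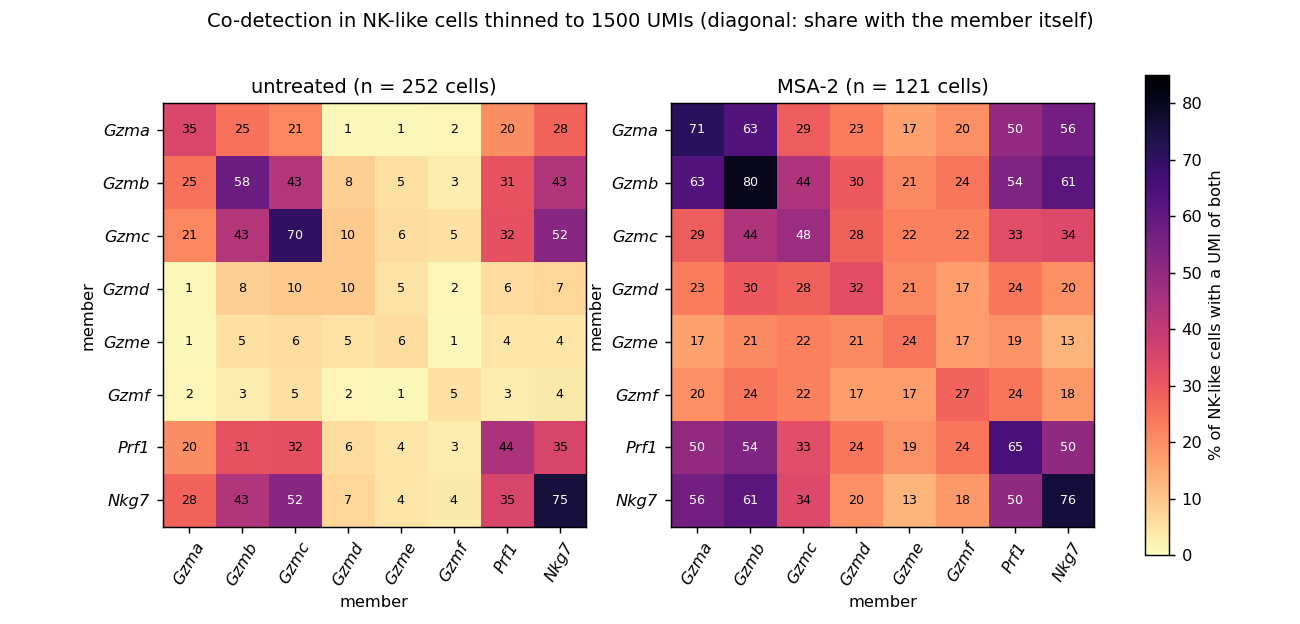
Percentage of NK-like cells, thinned to 1500 UMIs, with a UMI of both members named on the axes, in untreated (252 cells) and MSA-2 tumors (121 cells). The diagonal gives the share with the member itself, and the pair Gzma and Gzmb goes from 25.0% to 62.8% while Gzmd and Gzme go from 4.76% to 20.7%.

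CD8 T-like cells of the untreated library paired the members differently. Gzma went with Gzmk, which was found in 46.5% of the 71 cells with Gzma and 5.73% of those without, and the pair correlated at 0.47 over 891 cells. Gzma also went with Gzmb, together in 6.77% of cells against 2.79% from the product of the shares. Gzmf went with Prf1, in 4.67% against 2.27%, and with Gzmd, in 2.68% against 0.405%. Gzma and Prf1 were together in 1.05%, against 1.73%. In MSA-2 tumors only 10 CD8 T-like cells each held Gzma, Gzmk or Gzmf after thinning, and the pairs are not read.

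Over all NK/T-like cells, the genes most like Gzma, Gzmb, Gzmc and Prf1, the members for which likeness was computed, included signaling adaptors and receptors of NK cells besides other genes. Likeness was the mean of the Pearson correlations in the 1524 untreated and 301 MSA-2 cells, over 4714 genes. Gzma was most like Tyrobp (0.50), Gzmb (0.50), Fcer1g (0.48), Car2 (0.40) and Ncr1 (0.37). Gzmb was most like Gzma (0.50), Prf1 (0.41), Tyrobp, Fcer1g and Gzmc, and Gzmc was most like Car2 (0.55), Tyrobp, Fcer1g, Spp1 and Ncr1. Prf1 was led by Irf8 (0.51), followed by Tyrobp, Fcer1g, Spp1 and Klre1. Tyrobp and Fcer1g encode signaling adaptors of NK receptors that myeloid cells also use, and Ncr1 encodes NKp46. NK-like and T cells are mixed in these cells, and the part of cell type in such values was not tested.

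The rest of the cytotoxic pathway was described with lists of genes that, like the members, were chosen with earlier results of these data known. Granule packing and maturation genes stayed within 2-fold, with 0 of 8 called in either direction in NK-like and in CD8 T-like cells. Srgn, the proteoglycan on which granzymes are packed, was at 1383 and 1877 CPM in NK-like cells (log2 ratio 0.44), Ctsw at 564 and 312 (-0.85) and Cst7, an inhibitor of granzyme-activating cathepsin C, at 184 and 172 (-0.10). Of the genes for granule exocytosis, 0 of 7 were called in either type. Vamp8 was at 113 and 132 CPM and Rab27a, the GTPase that docks granules, at 39.3 and 63.9 in NK-like cells. With 5.4% of all genes called higher and 6.81% lower in NK-like cells, counts of 0 in lists this short are near the background.

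Among the other granzymes, Gzmg, which lies between Gzmd and Gzmf, rose in NK-like cells from 153 to 865 CPM (2.50), like its neighbors. Gzmn and Gzmm had 3 and 5 UMIs in the NK-like cells of both libraries together. Of 5 granzyme inhibitors, 1 was called in NK-like cells (Serpinb9b, from 14 to 40 UMIs, log2 ratio 2.19) and 1 in CD8 T-like cells (Serpinb6b, from 189 to 408 CPM, 1.11), both higher, and Serpinb9b was named after its values were seen. With 5.4% of all genes called higher in NK-like and 5.74% in CD8 T-like cells, 1 of 5 is not read as a result about the list. Serpinb9, the inhibitor of granzyme B, was at 454 and 381 CPM in NK-like and 305 and 227 in CD8 T-like cells. In NK-like cells Serpinb6b was at 353 and 679 CPM (0.94).

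Transcription factors and cytokine receptors that control these genes included some called in each direction. In NK-like cells 3 of 17 were called higher and 5 lower, and in CD8 T-like cells 4 of 18 and 3. Over all genes tested, 5.4% were higher and 6.81% lower in NK-like cells, and 5.74% and 9.02% in CD8 T-like cells. Because the list was chosen with earlier results of these data known, its counts are not read against these shares. Il2rb, the most abundant, was at 937 and 682 CPM in NK-like cells, Id2 at 747 and 552, and Stat4 at 457 and 240. Runx3 fell there from 494 to 241 CPM (-1.03). Of genes named after their values were seen, Tbx21, which encodes T-bet, fell in both types (-1.38 and -1.19), as did Il21r (-2.60 and -2.30), while Il2ra (1.77 and 1.47) and Prdm1, which encodes Blimp-1 (1.56 and 1.52), rose in both. Prdm1 in NK-like cells rested on 13 and 24 UMIs.

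Of the other killing routes, 1 gene of 3 tested was called higher and 1 lower in NK-like cells and 2 of 4 higher and 1 lower in CD8 T-like cells, counts too small to set against the 5.4% to 9.02% of all genes called. Ifng rose in both types, from 431 to 1663 CPM in NK-like (1.95) and from 934 to 3428 in CD8 T-like cells (1.88). Tnfsf10, which encodes TRAIL, fell in NK-like cells from 73.9 to 24.3 CPM (-1.61), and Fasl fell in CD8 T-like cells from 98.5 to 46.4 (-1.09). Lta rose in CD8 T-like cells, on 32 and 19 UMIs (1.70). Fasl in NK-like cells was at 55.2 and 38.6 CPM and Tnfsf10 in CD8 T-like cells at 63.4 and 67.2, both within 2-fold.

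Outside the NK/T-like class, members were found at a low level, with Gzmk in untreated endothelial-like cells and a few single cells as exceptions. Cells of other classes contained 13.95% of all member UMIs of the untreated library and 19.0% in the MSA-2 library, although they made up 88.6% and 97.8% of the cells. In CPM, the level outside was a median of 0.551% of that in NK/T-like cells over the 9 members in the untreated library (range 0.396% to 1.14%). For 10 genes that mark T and NK cells, such as Cd3e, Trac and Ncr1, it was 0.586% (0.367% to 0.704%). In the MSA-2 library the medians were 0.210% (0.148% to 0.885%) and 0.184% (0.138% to 0.371%). Most members outside were thus at about the relative level of genes that other cells should lack, although Gzmd (0.751%) and Gzme (0.796%) were above its range in the untreated library, where 1 cell held 60 of the 292 Gzmd and 20 of the 133 Gzme UMIs outside. Gzmk was the highest in both libraries, at 1.14% (0.887% to 1.44%) and 0.885% (0.633% to 1.21%), on 69 and 40 UMIs. Of the 69 untreated UMIs, 14 were in 9 of 63 endothelial-like cells, at most 5 in a cell. This is 22.4 CPM (12.3 to 37.6), against 34.1 CPM in NK/T-like cells and at most 0.451 CPM in the other classes outside. The untreated neutrophil-like and pericyte-like cells had no Gzmk UMI on totals of 56626 and 179571 UMIs, too few for a firm 0. The 10 identity genes summed to 40.0 CPM in the untreated endothelial-like cells, against 20.9 CPM over all cells outside. Among them Cd3g had 12 UMIs (19.2 CPM). In MSA-2 tumors the 84 endothelial-like cells held 2 Gzmk UMIs.

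**Figure D5:**
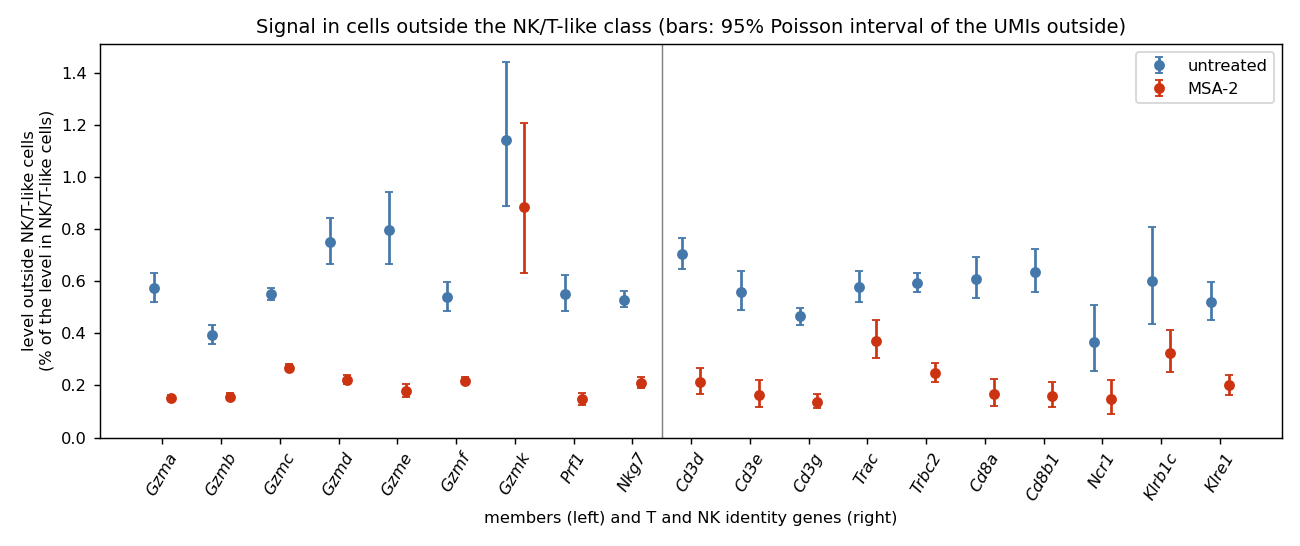
Level in all cells outside the NK/T-like class as a percentage of the level in NK/T-like cells (vertical axis), for the 9 members (left) and 10 T and NK identity genes (right), by library, with 95% Poisson intervals of the UMIs outside. Most members lie in the range of the identity genes, 0.367% to 0.704% without treatment and 0.138% to 0.371% after MSA-2, while Gzmk lies above it in both libraries and Gzmd and Gzme in the untreated library, where 1 cell held 60 of 292 and 20 of 133 UMIs.

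In the untreated library, 3 of the 4 proportions among members that were computed were close inside and outside the class. Gzma over Gzmc was 0.20 in NK/T-like cells and 0.21 outside, Gzmf over Gzmc 0.18 and 0.17, and Nkg7 over Gzmc 0.58 and 0.56. Gzmb over Gzma differed, at 1.62 inside and 1.11 outside. After MSA-2 the proportions were 1.02 inside and 0.58 outside for Gzma over Gzmc, 0.84 and 0.68 for Gzmf over Gzmc, 0.34 and 0.27 for Nkg7 over Gzmc, and 0.57 and 0.58 for Gzmb over Gzma. Over all cells outside, Gzmc was thus a larger part of the signal than inside after MSA-2. In macrophage/monocyte-like cells Gzma over Gzmc was then 0.90, Gzmf over Gzmc 0.675 and Nkg7 over Gzmc 0.425. In Ptprc-low cells Gzmc was at 10.8 and 7.20 CPM, Gzmf at 1.72 and 5.33 and Gzma at 2.26 and 4.14. In the MSA-2 library the richest Ptprc-low cell for Gzmf held 258 of 870 UMIs, and the richest for Gzmc held 203 of 1175. Prf1 was at 1.32 and 0.828 CPM there, Gzmb at 2.38 and 2.33 and Nkg7 at 5.81 and 1.67. Gzma, Gzmc, Gzmf, Gzmd (1.28 and 3.42 CPM) and Gzme (0.594 and 0.926) thus differed in the same direction as in NK-like cells, and Prf1 in the opposite direction. Gzmb, higher in NK-like cells after MSA-2, hardly differed in Ptprc-low cells (log2 ratio -0.03). Nkg7 was lower in Ptprc-low cells (-1.80) and hardly differed in NK-like cells.

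Few cells held many of these molecules. With at least 10 granzyme and perforin UMIs there were 12 of 11810 untreated and 13 of 13092 MSA-2 cells outside the class, and they contained 10.6% and 30.5% of the granzyme and perforin UMIs there. Of these cells, 9 and 10 also held T and NK identity genes, and 7 of the 13 MSA-2 cells were fibroblast-like. An unnamed cluster led by the mast cell protease gene Mcpt2 had Gzmd at 40.4% of the NK/T-like level in the untreated library, and 1 cell held 183 of its 216 granzyme and perforin UMIs (84.7%). Of the 15 untreated and 16 MSA-2 cells outside the class with at least 20 mast cell protease UMIs, the former held 2 Gzmc, 2 Gzmf, 1 Prf1 and 2 Nkg7 UMIs and the latter 1 Gzmb and 1 Gzmc, with no Gzma in either. Neutrophil-like cells of the MSA-2 library, 2648 in number, had Gzma at 5.89 CPM and Gzmf at 4.91, and the 41 untreated neutrophil-like cells held a single UMI of any member, of Gzmc.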

How the data were processed

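Cells sorted from pooled tumors were profiled with 10x Chromium 3′ v3.1 chemistry, and per the methods no sort gate was described. The authors deposited, for each library, a matrix of raw counts (UMIs per gene and barcode) made with Cell Ranger against mm10. The submitters' processing notes name Cell Ranger 7.0.0 and Seurat 4.3.0, no doublet removal was stated, and the deposited counts are not normalized. Barcodes under 500 genes or above 20% mitochondrial UMIs were dropped, and doublets called by Scrublet (scanpy 1.11.5, 0.8% expected per 1000 barcodes) were removed, 705 of 14039 untreated and 570 of 13963 MSA-2 cells. Clustering used Seurat 5.3.0 under R 4.3.3 (2000 variable genes without granzymes, perforin, Nkg7 and interferon-stimulated genes, 30 dimensions, resolution 1, reciprocal PCA integration), and the NK/T-like cells were clustered again. A cluster was named from at least 3 markers detected in at least 10% of its cells and a minimum marker score of 0.45. The members and all lists were chosen with earlier results of these data known. UMIs were summed per type and library and compared as CPM. Ratios have exact conditional binomial, shares Clopper-Pearson and levels Poisson 95% intervals, for counting error only, and a count of 0 allows up to 3 counts. The fold calculation was tested on simulated data. Up to 4 genes of each pathway list were named in order of their UMIs in NK/T-like cells. Alternatives were other filters, clusterings, type definitions, thinning depths, scalings (edgeR 4.0.16 TMM factors, 10 CPM added) and groups of cells left out. Promoters came from RefSeq and gene positions from GENCODE, both on GRCm38. No column of other series was present. The list of granzyme uptake and substrate genes is not reported here.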

Additional observations from a re-analysis of the deposited data

Results flagged for a closer look

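The neighboring granzyme genes Gzmd, Gzme and Gzmf on chromosome 14 differed in direction between NK-like and CD8 T-like cells, which is why they are listed here. Gzmd had a log2 ratio of MSA-2 over untreated of 1.99 in NK-like cells and -1.68 in CD8 T-like cells. For Gzme the log2 ratios were 2.56 and -3.80, and for Gzmf they were 3.82 and -0.30. The difference between the types was not tested, since each condition is 1 library. The CD8 T-like values rest on 16 Gzmd, 4 Gzme and 266 Gzmf UMIs in the MSA-2 library. At clustering resolution 0.5 the log2 ratios in CD8 T-like cells were 2.68 for Gzmd, 2.08 for Gzme and 0.32 for Gzmf, so the directions did not differ there, and with the stricter filter on cells that of Gzmf was 0.09.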

How the results depend on the processing

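The values here include the 1 CPM added for calls. In NK-like cells, Gzma, Gzmd, Gzme and Gzmf passed 2-fold in the same direction under all 16 alternatives tried, with log2 ratios of 1.72 to 2.25, 1.47 to 2.65, 1.93 to 2.86 and 3.02 to 4.13. The highest values of Gzmd, Gzme and Gzmf came from leaving out the 3 richest cells, a step that took a larger part of the untreated cells with the gene. Gzmc was lower and short of 2-fold in all 16 (-0.89 to -0.62), and Gzmb ranged from 0.68 to 1.04. CD8 T-like cells were less stable. At resolution 0.5, 25 of 121 MSA-2 and 25 of 597 untreated cells in that type were NK-like at resolution 1. Gzmd was then at 2.68 and Gzme at 2.08, the opposite direction, and 5 members were called, all higher. The count in CD8 T-like cells was 1 with the mean of each cell's CPM and 1 without the cycling subcluster. No share of all genes called is given for these settings, so their counts are not read as results. Gzma in CD8 T-like cells ranged from -0.97 to 4.10 and had the same sign in 12 of 16 alternatives, and Gzmf ranged from -1.13 to 0.32. The share of cells with 4 or more granzyme and perforin genes depends on depth. Without thinning it was 31.4% and 59.7% in NK-like and 6.62% and 8.96% in CD8 T-like cells, and with thinning to 1000 UMIs it was 10.5% and 39.0% in NK-like and 1.02% and 0.787% in CD8 T-like cells. The share of member UMIs outside NK/T-like cells was 18.5% in untreated and 22.3% in MSA-2 tumors with doublets kept, 13.2% and 18.2% with a stricter filter (1000 genes, 10% mitochondrial UMIs), and 13.5% and 15.4% with no filter beyond that of the authors. It was 13.4% in untreated tumors with all variable genes and 22.0% in MSA-2 tumors with no integration. The causes of these changes were not tested beyond the values given. Alternatives that left out shared barcodes, marker-rich cells, the cycling subcluster or the 3 richest cells, or weighted types by the untreated mix, were chosen after seeing the data. No paired analysis was possible because each condition has 1 library.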
